A study of Mus musculus with 16 samples.

Results

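The effect of chronic ethanol (EtOH) on gene expression in the terminal ileum was examined over both genotypes of the study at once, by comparing all 8 libraries of EtOH-fed mice with all 8 libraries of pair-fed (PF) mice. The members of this comparison are the 13811 of 21965 genes in the count table that passed a filter on low counts, each fitted with a model in which diet and genotype add up. Each library was 1 male mouse on a C57BL/6 background, 8 to 10 weeks old at the start. The mice were wild type (WT) or heterozygous fat-1 littermates. The fat-1 transgene, taken from C. elegans and active throughout the body, encodes an enzyme that makes n3 polyunsaturated fatty acids out of n6 ones. The PF libraries came from 4 WT and 4 fat-1 mice, and the EtOH libraries from 3 WT and 5 fat-1 mice. All mice received the Lieber-DeCarli liquid diet. In the EtOH groups the EtOH content was raised in steps to 6% (v/v), which was held for 3 weeks, and in the PF groups maltose dextrin replaced the EtOH calories. The authors froze a flushed segment, with no separation of layers described, and also call the material mucosa and epithelial tissue. Genes of epithelium, muscle, nerve and immune cells were counted in 1 library. Fewer cells of a type and less RNA per cell therefore cannot be told apart. The transgene is not among the mouse genes counted, and the mouse gene Fat1 is unrelated to it.

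The small intestine is lined by absorptive enterocytes that carry digestive enzymes and transporters on their brush border, package dietary fat into chylomicrons and hold alcohol dehydrogenases and detoxifying enzymes. These functions are graded along its length. Lactase, the fatty acid binding protein FABP1 and the transcription factor GATA4 belong to the upper part, bile acid reuptake belongs to the ileum, and carbonic anhydrase 1 and aquaporin 8 are typical of the large intestine. Secretory cells (goblet, Paneth, enteroendocrine and tuft cells) arise beside the enterocytes from crypt stem cells.

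Library totals lay between 8422645 and 11438539 reads, and 3 counts stood for 0.246 to 0.421 CPM, counts scaled to the adjusted library total. Library numbers followed the order of the diets, so that library order cannot be told apart from diet. On the first principal component, which took 49.7% of the variance, the PF libraries lay between -58.3 and -9.74 and the EtOH libraries between 7.64 and 105. Gut region markers set 5 libraries apart. Summed CPM of 14 large intestine markers ran from 391 to 592 in PF libraries and from 574 to 658 in 5 EtOH libraries, but reached 5703 in WT EtOH 2, 12808 in fat-1 EtOH 3 and 13885 in fat-1 EtOH 4. Summed CPM of 9 ileal genes, most of them of bile acid handling, were 1135 and 836 in fat-1 PF 2 and 4. They were 1164 and 2152 in fat-1 EtOH 3 and 4, against 3256 to 9750 in the other libraries. The defining ileal markers Slc10a2 and Fabp6, the bile acid carrier and binding protein, had medians of 588 and 1647 CPM in PF libraries but 3.56 and 3.31 CPM in fat-1 PF 4. A list of 18 proximal small intestine markers was chosen with earlier results of these data known. Its summed CPM ran from 771 to 20638 in PF libraries and from 385 to 525.8 in EtOH libraries, without overlap. Results are therefore also given without the 3 EtOH libraries that were rich in large intestine markers, and the part that the gut region of the segment had in the differences between diets was not tested.

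**Figure D1:**
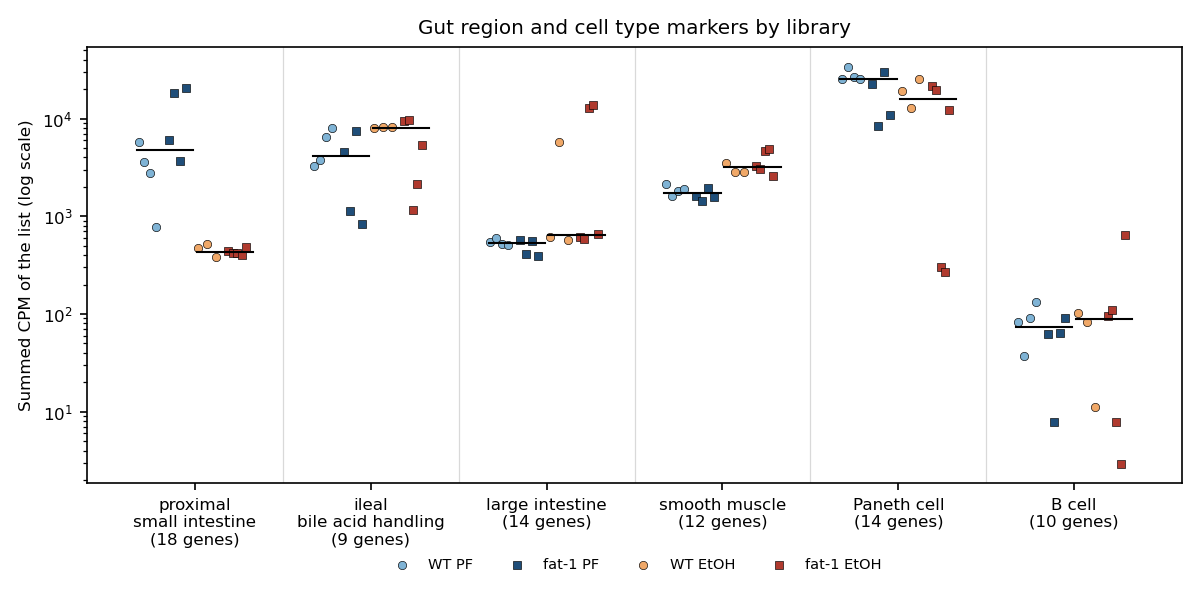
Summed CPM of gut region and cell type markers (log scale) in each of the 16 libraries. Circles are WT mice, squares fat-1 mice, and black lines the medians of the 8 libraries of a diet. The proximal markers of all EtOH libraries lie below those of all PF libraries, and large intestine markers stand at 5703 to 13885 in 3 EtOH libraries.

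Between EtOH and PF libraries, 5318 of 13811 genes differed at an adjusted p of 0.05 or less in edgeR's quasi-likelihood test (38.5%). Of these, 2683 were higher (19.4% of genes tested) and 2635 lower (19.1%) with EtOH, and such genes are termed called. Counts of list members are to be read against these shares. Changes of at least 2-fold were found in 1095 genes (7.93%), 645 of them higher and 450 lower. Beyond 5 on the log2 scale, 29 genes were lower and 11 higher. In 432 genes all 8 EtOH libraries lay above all 8 PF libraries (3.13%), and in 644 genes all lay below them (4.66%). Over all genes tested, the log2 fold changes had a median of 0.04. Without WT EtOH 2 and fat-1 EtOH 3 and 4, 4844 of 13778 genes were called (35.2%), 2361 of them higher (17.1%) and 2483 lower (18%). Of the calls made with all libraries, 4155 were also made in the same direction without these 3 libraries, and 0 in the opposite direction. Without fat-1 PF 2 and 4 as well (together the 5), 3945 genes were called (28.8%). The 645 genes higher by at least 2-fold became 339 without the 3 libraries and 224 without the 5. Upper-quartile scaling moved the median of all genes to 0.15 and the share of calls that were higher from 50.5% to 67.9%.

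Carbohydrate digestion and sugar uptake were lower with EtOH. Of 9 genes tested, 8 were called lower and 0 higher, with a median log2 fold change of -2.19, and without the 3 libraries all 9 were lower (median -1.78). Lct (ENSMUSG00000026354, chr1:128284756-128328318 on GRCm38), which encodes lactase, had the largest decrease of all genes whose groups did not overlap. Its CPM ran from 78.3 to 2979 in PF libraries (median 727) and from 0.171 to 2.30 in EtOH libraries (median 0.495). No EtOH library came near the lowest PF library (log2 fold change -10.79, SE 0.72, adjusted p = 9.19e-07). Slc2a2, the basolateral glucose and fructose transporter GLUT2, ran from 52.0 to 1102 CPM in PF libraries (median 386) and from 0.164 to 53.6 CPM in EtOH libraries (median 4.99). The diets met only in fat-1 EtOH 2 and WT PF 4 (log2 fold change -5.51, SE 0.92, adjusted p = 0.000700). Sis, sucrase-isomaltase, was 3932 to 8778 CPM in PF libraries (median 7105) and 96.1 to 4589 CPM in EtOH libraries (median 2127). The lowest values were those of fat-1 EtOH 3 and 4, and the log2 fold change was -1.72 (SE 0.60, adjusted p = 0.0357) with all libraries and -1.23 without the 3. Its call was lost in 8 of the 16 fits that left out 1 library. Genes of fructose breakdown, glycolysis and gluconeogenesis were called lower in 10 of 14 cases and higher in 0 (median -1.02), and in 12 and 0 without the 3 libraries. They included G6pc, the last step of glucose release (log2 fold change -3.44, SE 0.57, adjusted p = 0.000699), and Fbp1, fructose-1,6-bisphosphatase (log2 fold change -2.31, SE 0.51, adjusted p = 0.00313). Without the 5 libraries the log2 fold changes were -9.85 for Lct, -4.53 for Slc2a2, -2.84 for G6pc and -1.32 for Fbp1.

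Of 13 brush border peptidases, 3 were called lower and 0 higher (median -0.58), a share of lower genes near the 19.1% of all genes tested, and 6 were lower without the 3 libraries. Mme, neprilysin, ran from 288 to 1815 CPM in PF and from 2.13 to 256 CPM in EtOH libraries, so that the groups did not overlap (log2 fold change -3.00, SE 0.76, adjusted p = 0.00723). Tmprss15, enteropeptidase, had no count in any EtOH library and was at least 344-fold lower there, taking 3 counts over the group as the floor, or at least 129.9-fold without fat-1 PF 4. Its PF counts came almost wholly from fat-1 PF 1, 2 and 4, and its PF median was 0.167 CPM. Among 14 amino acid and peptide transporters, 4 were called lower and 1 higher (median -0.61), against the same 19.1% and 19.4% of all genes. The genes that fell included Slc36a1, a proton-coupled transporter of small amino acids (log2 fold change -2.45, SE 0.32, adjusted p = 0.000270), and Slc7a8, a basolateral transporter of neutral amino acids (log2 fold change -2.37, SE 0.46, adjusted p = 0.00154). Slc6a14, a broad transporter of neutral and cationic amino acids, ran the other way, from 0.702 to 139 CPM in PF libraries (median 9.41) and from 109 to 803 CPM in EtOH libraries (median 268). Only WT PF 1 reached the EtOH range (log2 fold change 4.91, SE 1.05, adjusted p = 0.00277), and the log2 fold change was 4.01 without the 3 libraries. Without the 5 the log2 fold changes were -2.11 for Mme, -1.71 for Slc7a8 and 3.37 for Slc6a14.

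Lipid uptake and chylomicron assembly held many separated members. Of 18 genes, 14 were called lower and 0 higher, with a median log2 fold change of -1.77. In 14 of the 18 all EtOH libraries lay below all PF libraries, and without the 3 libraries 15 were called lower. Fabp1 (chr6:71199827-71205023), which binds fatty acids in enterocytes, ran from 32.9 to 7519.8 CPM in PF libraries (median 1155) and from 7.24 to 15.7 CPM in EtOH libraries (median 9.51). The EtOH values lay close together and all PF values above them (log2 fold change -7.53, SE 0.85, adjusted p = 0.000114). The highest PF values were 6429 and 7519.8 CPM in fat-1 PF 2 and 4, and without the 5 libraries the log2 fold change was -6.33. Apoa4 (chr9:46240696-46243459), a chylomicron apolipoprotein, was 1702 to 40417 CPM in PF and 9.51 to 414 CPM in EtOH libraries (log2 fold change -5.75, SE 0.89, adjusted p = 0.000498), with a log2 fold change of -4.55 without the 5. An annotated gene on the other strand overlaps 69.8% of its exon bases, and whether strand was used in counting is not stated, so its counts are uncertain. Fabp2, the intestinal fatty acid binding protein, had medians of 9541 CPM in PF and 2280.1 CPM in EtOH libraries without overlap (log2 fold change -2.14, SE 0.29, adjusted p = 0.000306). Apoa1, the main apolipoprotein of HDL, had medians of 10400.0 and 3584 CPM, also without overlap (log2 fold change -1.91, SE 0.72, adjusted p = 0.0473), but 36.2 and 53.9 CPM in fat-1 EtOH 3 and 4, and its call was lost in 12 of the 16 fits that left out 1 library. Plb1, a brush border phospholipase, fell as well (log2 fold change -7.07, SE 1.14, adjusted p = 0.000587), although fat-1 PF 2 and 4 held only 8.98 and 0.614 CPM. Apoc2, an activator of lipoprotein lipase, had 88 counts in all PF libraries together and 1 in all EtOH libraries, a ratio of 115 (95% counting interval 20.2 to 4608), or 77.3 (13.3 to 3113) without fat-1 PF 4. Its counts are uncertain, since 77.5% of its windows of 75 bases also occur in an overlapping gene.

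**Figure D2:**
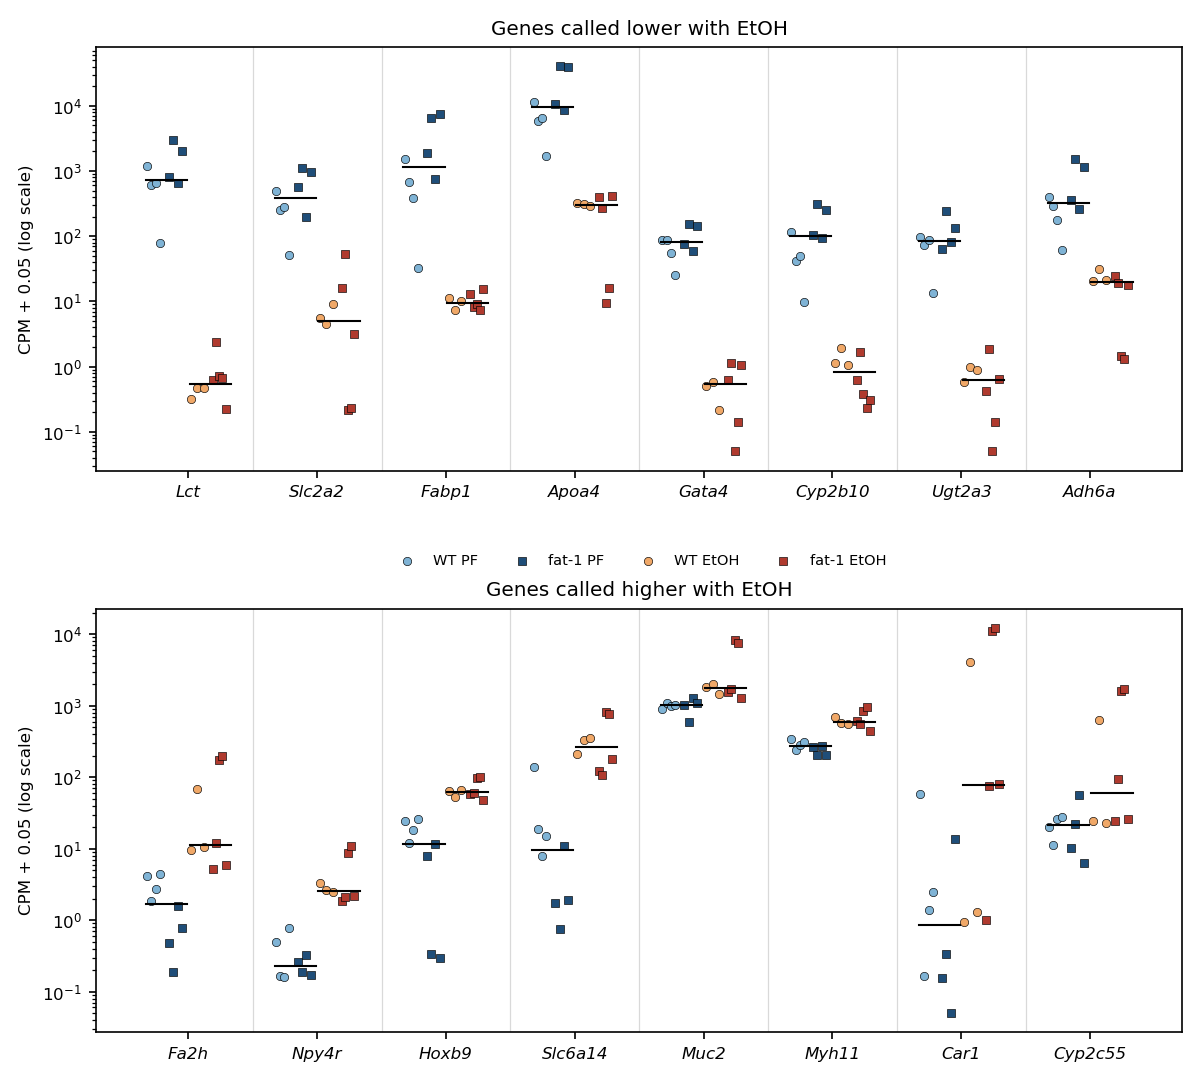
CPM plus 0.05 (log scale) of 8 genes called lower and 8 called higher with EtOH in each of the 16 libraries. Black lines are the medians of the 8 libraries of a diet, circles WT and squares fat-1 mice. Lct, Fabp1, Apoa4, Gata4, Cyp2b10, Ugt2a3 and Adh6a do not overlap between diets, and Car1 and Cyp2c55 stand at 4041 to 12208 and 639 to 1693 CPM in 3 EtOH libraries.

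Among transcription factors of the epithelium and of its metabolic programmes, 8 of 21 were called lower and 2 higher (median -0.32), and 7 and 1 without the 3 libraries. Gata4 (ENSMUSG00000021944, chr14:63198922-63271692), which maintains the jejunal programme of gene expression, had the smallest adjusted p of all genes tested. It ran from 25.6 to 156 CPM in PF libraries (median 81.1) and from 0 to 1.11 CPM in EtOH libraries (median 0.486). The groups were far apart (log2 fold change -7.51, SE 0.47, adjusted p = 7.36e-07). Its relative Gata6 fell without overlap (log2 fold change -0.90, SE 0.17, adjusted p = 0.00114). Creb3l3, a factor of lipid metabolism in liver and gut, had medians of 538 CPM in PF and 106 CPM in EtOH libraries, without overlap (log2 fold change -2.60, SE 0.28, adjusted p = 7.38e-05). Of the nuclear receptors, Nr1i3, the constitutive androstane receptor, ran from 7.27 to 183 CPM in PF and from 0.410 to 5.46 CPM in EtOH libraries (log2 fold change -4.65, SE 0.63, adjusted p = 0.000312), with 74.9% of its exon bases overlapped on the other strand. Without the 5 libraries the values were -6.65 for Gata4 and -3.74 for Nr1i3 on the log2 scale. Nr1i2, the pregnane X receptor (log2 fold change -0.60, SE 0.15, adjusted p = 0.00702), and Nr1h3, the oxysterol receptor LXR alpha (log2 fold change -0.99, SE 0.21, adjusted p = 0.00237), changed less. Onecut2, a factor of the upper small intestine, was highest in fat-1 PF 2 and 4 (45.6 and 74.7 CPM) and at most 10.9 CPM in the other PF libraries. Its log2 fold change was -5.68 (SE 1.14, adjusted p = 0.00190) with all libraries and -3.28 without the 5. Ppargc1a, a coactivator of mitochondrial genes, fell with all libraries (log2 fold change -0.59, SE 0.21, adjusted p = 0.0364) and was not called without the 3 (log2 fold change -0.49, adjusted p = 0.151) or in 10 of the 16 fits that left out 1 library. Hnf4a and Cdx2, general factors of the intestinal epithelium, had log2 fold changes of -0.03 (SE 0.11, adjusted p = 0.852) and -0.07 (SE 0.12, adjusted p = 0.664), both positive with upper-quartile scaling, and the 11 factors that were not called ranged from -0.78 to 0.23.

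The bases upstream of the start of transcription were compared between genes for motifs of epithelial transcription factors. Of such factors, Gata4 and Gata6 were called lower, and Hnf4a and Cdx2 were not called. The part of these factors in the differences was not tested. A promoter entry in RefSeq (GRCm38.p6) was found for 10853 of the genes tested. The 250 bases before the start were searched on both strands for the motif of GATA factors in the forms AGATAA and TGATAA, and for GTTAAT (part of the HNF1 motif), TTTATNG (CDX factors) and CAAAGTC (part of the HNF4 motif). AGATAA or TGATAA occurred in 9.59% of all these promoters, in 10.9% of genes called lower, in 9.70% of genes called higher and in 10.5% of the 515 genes with an entry in which all EtOH libraries lay below all PF libraries. It occurred in 18.3% of the 361 genes called lower by at least 2-fold and in 12.7% of the 472 genes called higher by at least 2-fold. GTTAAT was found in 9.42% of the 361 genes, 5.51% of the 472 genes and 4.23% of all promoters. TTTATNG was found in 12.5%, 7.42% and 6.60%, and CAAAGTC in 7.48%, 3.18% and 3.59%. Over all genes called lower the shares were close to those of all promoters, at 4.53% for GTTAAT, 6.91% for TTTATNG and 4.11% for CAAAGTC. The median GC content was 55.6% in the promoters of the 361 genes, 58.2% in those of the 472 genes and 59.6% in all, and its part in these shares was not tested. A match is a run of letters and was not measured as a binding site.

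The upstream bases are shown for 3 genes with large decreases and 2 with large increases, taken from the genes named for the size of their change whose 250 bases hold no annotated exon, so that the letters behind these shares can be seen. These 5 were the genes that could be shown, and other genes named for size may also meet this condition. Of the genes named for size with an entry, AGATAA or TGATAA occurred in 5 of 7 that were lower and 1 of 6 that were higher, and the 5 sequences do not stand for the shares of 18.3% and 12.7% above. Capitals mark the motif matches, and positions count back from the start. Lct (chr1:128328319-128328568, minus strand) has AGATAA at -90 and, on the other strand, at -101. Mbl2 (chr19:30232678-30232927, plus strand) and Ugt2a3 (chr5:87337196-87337445, minus strand) each have it on the other strand at -34, and Ugt2a3 also has GTTAAT at -54 and -47 and TTTATNG at -102. In 2610528A11Rik (chr14:37110102-37110351, minus strand) and Ildr1 (chr16:36693728-36693977, plus strand), which were higher with EtOH, none of the letters searched occurs in this window.
Lct: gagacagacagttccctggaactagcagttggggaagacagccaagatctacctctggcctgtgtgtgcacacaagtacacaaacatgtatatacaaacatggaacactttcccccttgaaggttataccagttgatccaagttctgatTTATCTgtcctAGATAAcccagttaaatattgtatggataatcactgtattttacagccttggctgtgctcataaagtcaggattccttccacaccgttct
Mbl2: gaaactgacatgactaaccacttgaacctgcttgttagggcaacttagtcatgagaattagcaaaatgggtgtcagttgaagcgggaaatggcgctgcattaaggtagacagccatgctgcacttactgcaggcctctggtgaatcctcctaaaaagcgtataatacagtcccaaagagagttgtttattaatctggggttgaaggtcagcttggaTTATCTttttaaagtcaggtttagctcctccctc
Ugt2a3: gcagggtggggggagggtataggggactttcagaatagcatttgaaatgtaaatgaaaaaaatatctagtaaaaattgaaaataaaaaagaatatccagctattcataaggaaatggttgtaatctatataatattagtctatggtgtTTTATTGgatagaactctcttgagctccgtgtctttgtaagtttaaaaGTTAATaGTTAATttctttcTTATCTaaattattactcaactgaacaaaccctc
2610528A11Rik: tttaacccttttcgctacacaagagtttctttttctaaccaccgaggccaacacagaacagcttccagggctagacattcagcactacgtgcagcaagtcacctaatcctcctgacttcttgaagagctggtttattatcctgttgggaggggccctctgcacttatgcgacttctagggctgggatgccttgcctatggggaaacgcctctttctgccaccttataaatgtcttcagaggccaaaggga
Ildr1: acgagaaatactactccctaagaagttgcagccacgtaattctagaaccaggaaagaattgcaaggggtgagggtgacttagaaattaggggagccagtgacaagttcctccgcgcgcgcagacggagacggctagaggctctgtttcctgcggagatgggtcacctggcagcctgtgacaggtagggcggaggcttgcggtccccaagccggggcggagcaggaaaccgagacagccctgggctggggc

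Of the genes that oxidise ethanol and acetaldehyde, 6 of 14 were called lower and 1 higher (median -0.02, or 0.08 with upper-quartile scaling), and 7 and 1 without the 3 libraries. Adh1, the class I alcohol dehydrogenase, ran from 29.0 to 1435 CPM in PF libraries (median 133) and from 24.7 to 92.1 CPM in EtOH libraries (median 28.2). The groups overlapped, with the highest EtOH values in fat-1 EtOH 3 and 4 (log2 fold change -2.82, SE 0.61, adjusted p = 0.00303). Adh6a, a related dehydrogenase, ran from 61.8 to 1518 CPM in PF and from 1.25 to 31.2 CPM in EtOH libraries, without overlap (log2 fold change -4.80, SE 0.79, adjusted p = 0.000648). Adh4 had 487 counts in all PF and 7 in all EtOH libraries, a ratio of 91.2 (95% counting interval 43.9 to 228), or 59.3 (28.4 to 149) without fat-1 PF 2. Its log2 fold change was -6.55 with all libraries and -5.11 without the 5. Cat, catalase, which also oxidises ethanol, fell less (log2 fold change -0.87, SE 0.19, adjusted p = 0.00342). Adh5, the ubiquitous class III enzyme, had a log2 fold change of 0.09 (SE 0.22, adjusted p = 0.769) with all libraries, and was called lower without the 3 (log2 fold change -0.36, adjusted p = 0.0120), with 71.0 to 142 CPM in these 3 and 48.6 to 59.1 CPM in the other EtOH libraries. Cyp2e1, the ethanol-inducible cytochrome P450, ran from 4.26 to 28.4 CPM in PF libraries (median 8.48) and from 3.57 to 49.1 CPM in EtOH libraries (median 8.39). The groups overlapped widely and Cyp2e1 was not called (log2 fold change 0.72, SE 0.55, adjusted p = 0.313). Aldh2, the mitochondrial enzyme that clears acetaldehyde, was not called either, with medians of 196 and 209 CPM (log2 fold change 0.07, SE 0.10, adjusted p = 0.612). Among the other aldehyde dehydrogenases, Aldh9a1 (log2 fold change -0.81, SE 0.28, adjusted p = 0.0318) and Aldh3a2 (log2 fold change -0.39, SE 0.11, adjusted p = 0.0130) fell, while Aldh7a1 rose (log2 fold change 0.68, SE 0.14, adjusted p = 0.00218). The acetyl-CoA synthetases Acss1 and Acss2, which use the acetate formed, had log2 fold changes of 0.47 (SE 0.18, adjusted p = 0.0541) and 0.44 (SE 0.20, adjusted p = 0.0906). The call of Aldh9a1 was lost in 5 of the 16 fits that left out 1 library, and without the 5 libraries the log2 fold changes were -2.05 for Adh1, -3.67 for Adh6a and -0.35 (adjusted p = 0.0549) for Aldh3a2.

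Detoxifying enzymes were mostly lower. Of 17 cytochromes P450, 10 were called lower and 4 higher (median -1.25), the latter a share near the 19.4% of all genes, and 12 and 2 without the 3 libraries. Cyp2b10, a known target of the constitutive androstane receptor, ran from 9.87 to 308 CPM in PF and from 0.178 to 1.89 CPM in EtOH libraries, without overlap (log2 fold change -7.04, SE 0.68, adjusted p = 4.94e-05). Cyp3a11, a known target of the pregnane X receptor, fell without overlap (log2 fold change -4.18, SE 0.85, adjusted p = 0.00209). Cyp2c55 was 639 to 1693 CPM in the 3 libraries rich in large intestine markers and 23.0 to 93.1 CPM in the other EtOH libraries, and was called higher (log2 fold change 4.24, SE 1.09, adjusted p = 0.00771) only with them (without them, log2 fold change 0.67, adjusted p = 0.327). Cyp2d34, at 47.4 to 177 CPM in these and 0.190 to 1.71 CPM in the others, was likewise called (log2 fold change 6.33, SE 1.59, adjusted p = 0.00683) only with them (without them, log2 fold change 1.33, adjusted p = 0.123). Of 23 conjugation enzymes, 12 were called lower and 3 higher (median -0.57), against 19.1% and 19.4% of all genes, and 14 and 2 without the 3. Ugt2a3, a glucuronosyltransferase, ran from 13.4 to 248 CPM in PF and from 0 to 1.79 CPM in EtOH libraries, without overlap (log2 fold change -7.27, SE 0.60, adjusted p = 1.37e-05). Sult6b2, of the sulfotransferase family, had 4860 counts in PF and 5 in EtOH libraries, a ratio of 1274 (95% counting interval 546 to 3926), or 583 (249 to 1797) without fat-1 PF 4, with its highest CPM in fat-1 PF 1, 2 and 4. Sult1c2, another sulfotransferase, rose (log2 fold change 2.58, SE 0.66, adjusted p = 0.00778) and had a log2 fold change of 1.21 without the 3 libraries. Sult1a1 rose with all libraries (log2 fold change 3.90, SE 1.00, adjusted p = 0.00759) and was not called without the 3 (log2 fold change 0.65, adjusted p = 0.0624). With all 5 libraries left out the log2 fold changes were -6.37 for Cyp2b10, -3.18 for Cyp3a11, -6.38 for Ugt2a3 and 1.02 for Sult1c2.

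Purine and pyrimidine handling showed 8 genes lower and 2 higher of 14 tested (median -0.90), and 8 and 2 without the 3 libraries. Slc28a1, a concentrative nucleoside transporter, ran from 3.33 to 132 CPM in PF and from 0 to 4.92 CPM in EtOH libraries, overlapping only in WT PF 4 and WT EtOH 1 (log2 fold change -4.64, SE 0.79, adjusted p = 0.000757). Adora2b, the low-affinity adenosine receptor, also fell (log2 fold change -3.53, SE 0.70, adjusted p = 0.00170), with its highest EtOH values in fat-1 EtOH 3 and 4 (1.97 and 3.12 CPM) and a log2 fold change of -4.87 without the 3 and -3.69 without the 5. Adk, adenosine kinase (log2 fold change 0.65, SE 0.19, adjusted p = 0.0137), and Slc29a1, an equilibrative nucleoside transporter (log2 fold change 0.26, SE 0.08, adjusted p = 0.0189), rose with all libraries. Without the 5 libraries Slc28a1 had a log2 fold change of -3.11, and neither Adk (0.34, adjusted p = 0.0860) nor Slc29a1 (0.22, adjusted p = 0.0685) was called.

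Fatty acid oxidation and ketogenesis held 5 genes called lower and 2 higher of 20 tested (median -0.20, against 19.1% lower and 19.4% higher of all genes), but 16 lower and 1 higher without the 3 libraries (median -0.67). Ephx2, the soluble epoxide hydrolase, ran from 95.3 to 1157 CPM in PF and from 49.5 to 75.7 CPM in EtOH libraries, without overlap (log2 fold change -2.76, SE 0.40, adjusted p = 0.000394), and its log2 fold change was -2.02 without the 5. Hadh, which oxidises short-chain hydroxyacyl-CoA, fell (log2 fold change -1.07, SE 0.18, adjusted p = 0.000795). Cpt1a, which admits long-chain fatty acids to mitochondria, rose (log2 fold change 0.75, SE 0.21, adjusted p = 0.0122) and had a log2 fold change of 0.38 without the 3.

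None of the 7 fatty acid receptors was called (median 0.77, and 0.16 without the 3 libraries). Of the cell surface receptors for long-chain fatty acids, Ffar1 had a log2 fold change of 0.69 (SE 0.43, adjusted p = 0.209) and Ffar4 of 0.95 (SE 0.45, adjusted p = 0.108). Ffar1 was called higher without the 3 libraries (log2 fold change 1.08, adjusted p = 0.0264) but not without the 5 (0.91, adjusted p = 0.0805). The receptors for short-chain fatty acids, Ffar2 and Ffar3, had log2 fold changes of 0.78 (SE 0.37, adjusted p = 0.105) and 0.77 (SE 0.30, adjusted p = 0.0559), and Ffar3 was called higher without the 5 (log2 fold change 1.35, adjusted p = 0.00987). Ffar2 and Ffar4 had 0.16 and 0.32 without the 3, and 0.15 and -0.03 without the 5, none of them called. The nuclear receptors Ppara, Ppard and Pparg, which control genes of lipid metabolism, had log2 fold changes of 0.19 (SE 0.26, adjusted p = 0.581), -0.16 (SE 0.12, adjusted p = 0.289) and 1.08 (SE 0.48, adjusted p = 0.0836), the last at 37.5 to 70.0 CPM in the 3 libraries and 6.94 to 17.4 CPM in the other EtOH libraries. Without the 3, Pparg had a log2 fold change of -0.11, and without the 5 of 0.34.

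Genes that mark position along the gut differed between the diets. Of 17 proximal small intestine genes tested, 13 were called lower and 1 higher (median -5.01), and 13 and 0 without the 3 libraries (median -4.65). Beyond the genes above, Slc23a1, the vitamin C transporter, ran from 3.74 to 157 CPM in PF and from 0 to 1.14 CPM in EtOH libraries (log2 fold change -7.66, SE 0.67, adjusted p = 2.30e-05), with a log2 fold change of -6.79 without the 5. Mbl2, a mannose-binding lectin, had 786 counts in PF and 3 in EtOH libraries, a ratio of 343 (95% counting interval 117 to 1669). Without fat-1 PF 4 the ratio was 295.5 (100.6 to 1437). The log2 fold change of Mbl2 was -8.11 with all libraries and -6.97 without the 5. The exception was Slc40a1, the iron exporter ferroportin, which rose (log2 fold change 1.28, SE 0.35, adjusted p = 0.0113) and was not called without the 3 (log2 fold change 1.08, adjusted p = 0.0617). The proximal list was chosen with earlier results of these data known. It holds Lct, Fabp1, Gata4, Cyp2b10, Ugt2a3, Slc23a1 and Mbl2, which are among the 10 largest decreases without overlap. Its count and median are therefore not separate from those decreases. Of 36 Hox genes, which mark position along the body axis, 22 were tested, of which 12 were called higher and 0 lower (median 1.56). Without the 3 libraries 9 of 18 were higher (median 1.10). In the Hoxb cluster 7 of 8 genes tested rose, with log2 fold changes of 1.82 to 2.80, and none of these 7 overlapped between diets. Hoxb5 ran from 2.23 to 7.98 CPM in PF and from 15.1 to 32.6 CPM in EtOH libraries (log2 fold change 2.31, SE 0.27, adjusted p = 0.000151). Hoxb9 ran from 0.245 to 26.3 CPM and from 47.6 to 100.3 CPM (log2 fold change 2.80, SE 0.57, adjusted p = 0.00219), with its lowest PF values in fat-1 PF 2 and 4 and a log2 fold change of 2.05 without the 5. Hoxa9 had 3 counts in all PF libraries together and 159 in EtOH libraries, a ratio of 40.4 (95% counting interval 13.6 to 198), or 31.0 (10.3 to 153) without WT EtOH 2, and Hoxa10 had 2 and 167, a ratio of 63.7 (95% counting interval 17.4 to 530.3), or 40.6 (10.9 to 340.2) without fat-1 EtOH 3. Both had most of their counts in the 3 libraries rich in large intestine markers and were too low for the fit without them.

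Of 14 large intestine markers, 9 were tested and 7 called higher (median 1.66), but 2 were higher and 1 lower without the 3 libraries (median 0.61). These 3 libraries were chosen by the sums of these same markers, so that the fall without them follows from that choice. Car1, carbonic anhydrase 1, was 4041 to 12208 CPM in these 3 and 0.895 to 79.1 CPM in the other EtOH libraries, against 0 to 58.6 CPM in PF libraries. Its log2 fold change was 8.68 (SE 2.51, adjusted p = 0.0143) with all libraries and 1.85 (adjusted p = 0.502) without the 3. Aqp8, aquaporin 8, was 95.4 to 315 CPM and 0 to 1.11 CPM, with log2 fold changes of 8.61 (SE 2.01, adjusted p = 0.00457) and 0.91 (adjusted p = 0.518). The ileal list held bile acid genes and the vitamin B12 receptor genes Cubn and Amn. Of its 9 genes, 1 was called higher and 1 lower (median 0.30, and 0.85 without the 3 libraries). Nr1h4, the bile acid receptor FXR, rose with all libraries (log2 fold change 0.96, SE 0.32, adjusted p = 0.0293) and was not called without the 3 (log2 fold change 1.04, adjusted p = 0.0604), but was called again without the 5 (0.63, adjusted p = 0.0185). Amn, a subunit of the vitamin B12 receptor, fell (log2 fold change -1.13, SE 0.34, adjusted p = 0.0191). Slc10a2 and Fabp6 had log2 fold changes of 1.08 (SE 0.76, adjusted p = 0.276) and 0.81 (SE 0.94, adjusted p = 0.516). Slc10a2 was called higher without the 5 libraries (0.75, adjusted p = 0.0404), which include the 2 PF libraries with the lowest sums of the ileal list. Fgf15, the hormone that bile acids induce, had a log2 fold change of 0.15 (SE 1.15, adjusted p = 0.930), and of 0.85 without the 3.

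Smooth muscle genes rose together. All 12 were called higher, with all libraries and without the 3 (medians 1.00 and 0.93), and in 10 of them all EtOH libraries lay above all PF libraries. Myh11 (chr16:14194535-14291372), the smooth muscle myosin heavy chain, ran from 205 to 343 CPM in PF libraries (median 269) and from 438 to 970.0 CPM in EtOH libraries (median 590.3). The diets did not overlap (log2 fold change 1.31, SE 0.17, adjusted p = 0.000175). Cnn1, calponin (log2 fold change 1.44, SE 0.23, adjusted p = 0.000512), Actg2, enteric actin (log2 fold change 1.37, SE 0.26, adjusted p = 0.00124), and Acta2, smooth muscle actin (log2 fold change 1.07, SE 0.17, adjusted p = 0.000537), rose without overlap as well. Summed over the list, 1443 to 2127 CPM were found in PF and 2571 to 4934 CPM in EtOH libraries. Of 11 neuron and glia genes, 7 were called higher and 0 lower (median 0.75), but 2 were higher without the 3 libraries. Nos1, the neuronal nitric oxide synthase, ran from 0.547 to 1.45 CPM in PF and from 1.54 to 8.61 CPM in EtOH libraries (log2 fold change 1.89, SE 0.39, adjusted p = 0.00202), and its log2 fold change was 1.33 without the 3. Gfap, a glial filament, rose with all libraries (log2 fold change 1.75, SE 0.54, adjusted p = 0.0201) and was not called without the 3 (log2 fold change 0.69, adjusted p = 0.180).

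Of 12 goblet cell genes, 5 were called higher and 1 lower (median 0.79), and 4 and 1 without the 3 libraries (median 0.24). Muc2, the gel-forming mucin, ran from 596 to 1262 CPM in PF libraries and from 1299 to 8164 CPM in EtOH libraries. It was 8164 and 7544 CPM in fat-1 EtOH 3 and 4 and no more than 2023 CPM in the other EtOH libraries, without overlap between diets. The log2 fold change was 1.51 (SE 0.42, adjusted p = 0.0109) with all libraries and 0.68 without the 3 and 0.58 without the 5. Retnlb, a goblet cell product that acts on bacteria, had medians of 0.394 and 8.53 CPM (log2 fold change 5.29, SE 0.95, adjusted p = 0.00102) and a log2 fold change of 3.57 without the 3 and 3.20 without the 5. Zg16, a lectin of the mucus, fell (log2 fold change -0.46, SE 0.13, adjusted p = 0.0100), and B3gnt6, which extends mucin glycans, rose with all libraries (log2 fold change 1.57, SE 0.51, adjusted p = 0.0255) but was not called without the 3 (log2 fold change 0.65, adjusted p = 0.105). Of 11 tuft cell genes, 5 were called higher and 1 lower (median 0.76), and 7 and 0 without the 3. The genes that rose included Pou2f3, the factor that specifies tuft cells (log2 fold change 0.99, SE 0.20, adjusted p = 0.00187), Dclk1, a kinase of tuft cells (log2 fold change 0.93, SE 0.17, adjusted p = 0.00114), and Itpr2, a calcium release channel (log2 fold change 1.07, SE 0.23, adjusted p = 0.00294). Ltc4s, leukotriene C4 synthase, fell with all libraries (log2 fold change -1.49, SE 0.43, adjusted p = 0.0133), with 23.3 and 29.5 CPM in fat-1 PF 2 and 4 and at most 6.01 CPM in the other PF libraries, and was not called without the 3 (log2 fold change -1.39, adjusted p = 0.0602) or the 5 (-0.48, adjusted p = 0.191). None of 12 Paneth cell genes was called (median -0.46, and -0.04 without the 3). Lyz1, the Paneth cell lysozyme, was 42.7 and 42.3 CPM in fat-1 EtOH 3 and 4 and at least 2116 CPM in the other libraries (log2 fold change -0.66, SE 0.77, adjusted p = 0.512). Defa17, a defensin, had a log2 fold change of -0.94 (SE 0.68, adjusted p = 0.284) and was called lower without the 3 (-0.45, adjusted p = 0.0454), with 91.3% of its 75-base windows shared with a related gene.

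Among 12 enteroendocrine genes, 3 were called lower and 1 higher (median -0.14, against 19.1% and 19.4% of all genes), and 4 and 1 without the 3 libraries. Gip, the glucose-dependent insulinotropic peptide of the upper gut, ran from 8.21 to 167 CPM in PF and from 0 to 4.17 CPM in EtOH libraries, without overlap (log2 fold change -5.01, SE 0.68, adjusted p = 0.000312), with a log2 fold change of -3.77 without the 5. Cck, cholecystokinin, ran from 4.36 to 44.8 CPM and from 1.48 to 3.94 CPM (log2 fold change -2.32, SE 0.46, adjusted p = 0.00178), and its log2 fold change was -1.22 without the 5. Gcg, the precursor of the distal hormone GLP-1, was 25.8 to 38.0 CPM in PF and 41.1 to 73.6 CPM in EtOH libraries and rose without overlap (log2 fold change 0.84, SE 0.14, adjusted p = 0.000623). Of 10 stem cell genes, 2 were called higher and 0 lower, where 19.4% of all genes tested were called higher. They were Lgr5, a receptor of crypt stem cells (log2 fold change 0.51, SE 0.19, adjusted p = 0.0409), and Slc12a2, a chloride cotransporter of the crypt (log2 fold change 0.81, SE 0.20, adjusted p = 0.00577). Of 15 proliferation genes, 2 were called higher and 0 lower, namely Mki67, the Ki-67 antigen (log2 fold change 0.52, SE 0.16, adjusted p = 0.0189), and Mcm7, a subunit of the replicative helicase (log2 fold change 0.27, SE 0.09, adjusted p = 0.0324). Both counts lie near or under that share. The call of Lgr5 was lost in 8 of the 16 fits that left out 1 library, and that of Mcm7 in 4 of the 16 fits that left out 1 library and without the 5 (log2 fold change 0.25, adjusted p = 0.0545). Without the 3 libraries 3 genes of each list were higher, and 0 lower.

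**Figure D3:**
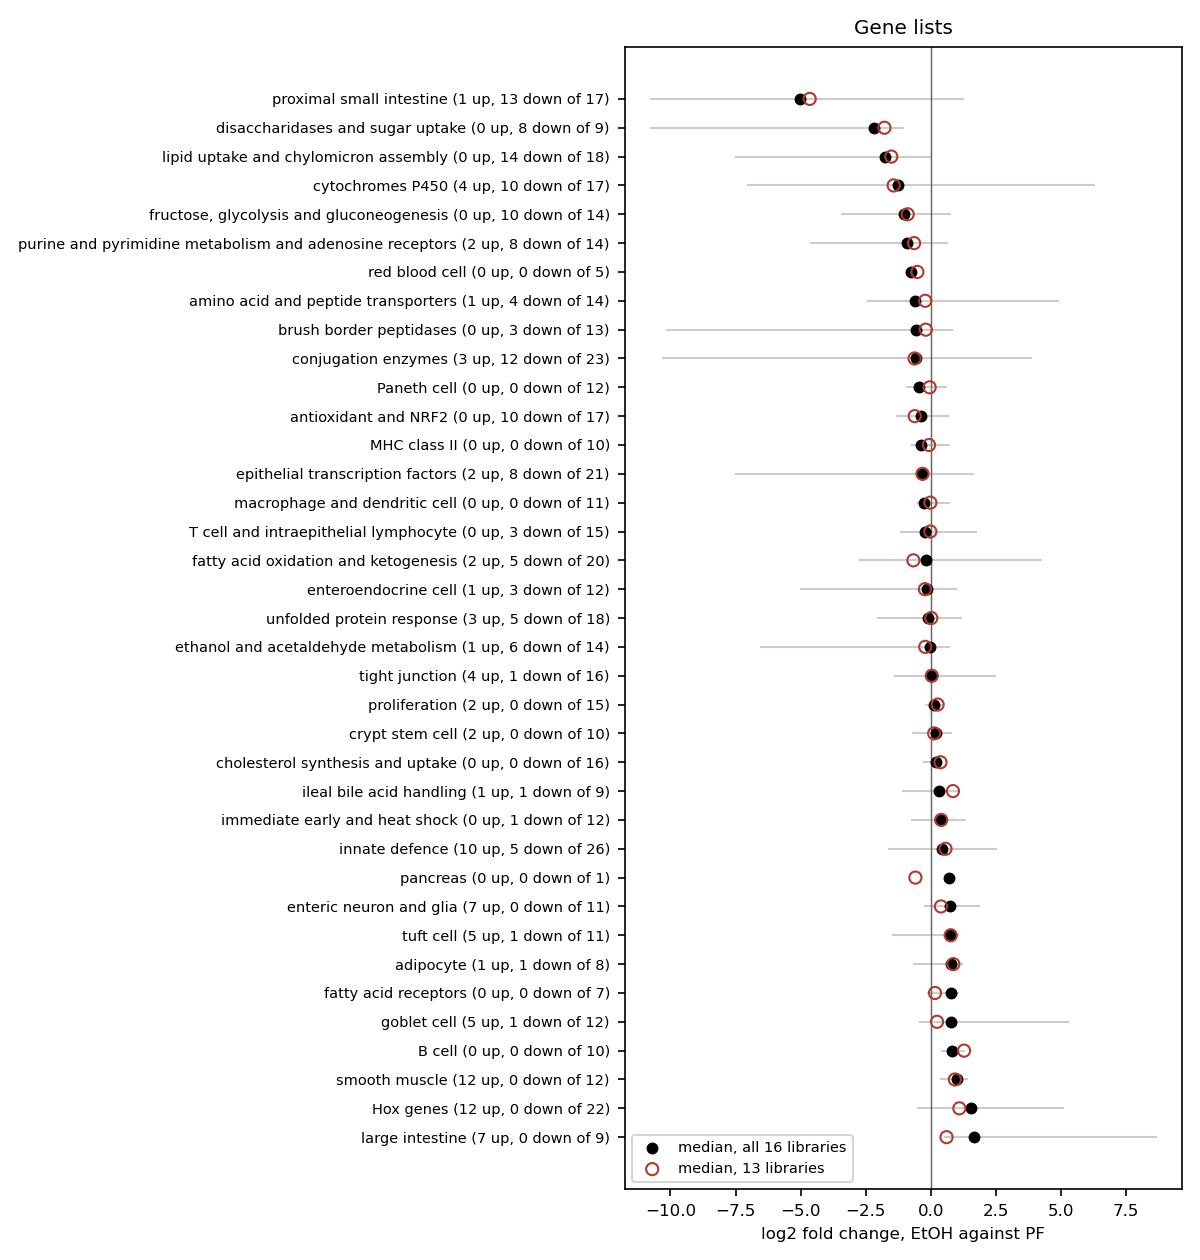
Median log2 fold change (EtOH against PF) of each of 37 gene lists, with all 16 libraries (filled) and with 13 libraries, without the 3 rich in large intestine markers (open). Grey lines run from the lowest to the highest member, and the numbers count members called higher and lower. The proximal small intestine list has the lowest median (-5.01) and the large intestine list the highest (1.66), which is 0.61 with 13 libraries. The 3 libraries left out were chosen by the large intestine list itself.

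Immune cell markers were seldom called. None of 10 B cell genes (median 0.83), 11 macrophage and dendritic cell genes (median -0.27) and 10 MHC class II genes (median -0.38) was called, with all libraries or without the 3. The B cell median was -0.35 in WT and 1.71 in fat-1 mice, 0 of its 10 genes had the same sign in both, and its summed CPM were 649.8 in fat-1 EtOH 5 and at most 110.1 in the other EtOH libraries. Cd163, a scavenger receptor of resident macrophages, had a log2 fold change of 0.72 (SE 0.33, adjusted p = 0.0967), and H2-Ab1, an antigen-presenting chain, of -0.77 (SE 0.49, adjusted p = 0.228). Of 15 genes of T cells and intraepithelial lymphocytes, 3 were called lower and 0 higher (median -0.21), a share of lower genes near the 19.1% of all genes, and 2 and 1 without the 3. They included the granzymes of cytotoxic lymphocytes Gzma (log2 fold change -1.19, SE 0.37, adjusted p = 0.0195) and Gzmb (log2 fold change -1.12, SE 0.34, adjusted p = 0.0178), neither of them called without the 5 (log2 fold changes -0.66 (adjusted p = 0.0783) for Gzma and -0.64 (adjusted p = 0.0996) for Gzmb). Of 26 genes of innate defence, 10 were called higher and 5 lower (median 0.43), the latter a share near the 19.1% of all genes, and 9 and 3 without the 3 libraries. Tlr5, the receptor of bacterial flagellin, ran from 0.273 to 1.66 CPM in PF and from 1.62 to 16.3 CPM in EtOH libraries (log2 fold change 2.46, SE 0.64, adjusted p = 0.00852), and its log2 fold change was 1.46 without the 3 and 1.46 without the 5. Tlr2, the receptor of bacterial lipopeptides, was 13.6 to 53.1 CPM in these 3 libraries and 2.76 to 4.79 CPM in the other EtOH libraries, against 1.40 to 3.42 CPM in PF libraries. Its log2 fold change was 2.54 (SE 0.70, adjusted p = 0.0114) with all libraries and 0.69 without the 3, and it was not called without the 5 (log2 fold change 0.50, adjusted p = 0.102). Il18, an epithelial cytokine matured by inflammasomes, had medians of 106 CPM in PF and 30.3 CPM in EtOH libraries and fell (log2 fold change -1.63, SE 0.27, adjusted p = 0.000707). Gsdmd, the pore-forming protein of pyroptosis, fell too (log2 fold change -1.30, SE 0.22, adjusted p = 0.000799).

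Antioxidant genes were called lower in 10 of 17 cases and higher in 0, and in 10 and 0 without the 3 libraries (medians -0.39 and -0.62). Gpx4, which reduces lipid peroxides, ran from 106 to 382 CPM in PF and from 68.1 to 99.0 CPM in EtOH libraries, without overlap (log2 fold change -1.35, SE 0.20, adjusted p = 0.000387), although 29.8% of its 75-base windows also occur in a pseudogene. Osgin1, a known NRF2 target, fell (log2 fold change -0.90, SE 0.16, adjusted p = 0.00108). In the unfolded protein response, 5 of 18 genes were called lower and 3 higher (median -0.12), against 19.1% and 19.4% of all genes. Trib3 (log2 fold change -2.06, SE 0.47, adjusted p = 0.00378) and Atf4 (log2 fold change -0.61, SE 0.11, adjusted p = 0.000988), a target and a factor of the arm that restrains translation, fell. Ern2, the stress sensor of mucous cells (log2 fold change 1.21, SE 0.36, adjusted p = 0.0170), and Atf6, another sensor (log2 fold change 0.33, SE 0.12, adjusted p = 0.0425), rose with all libraries. Ern2 was not called without the 5 (log2 fold change 0.58, adjusted p = 0.0503), and the call of Atf6 was lost in 9 of the 16 fits that left out 1 library. Of 16 tight junction genes, 4 were called higher and 1 lower, with all libraries and without the 3, where 19.4% and 19.1% of all genes were called with all libraries. Cldn8, a barrier-forming claudin, ran from 0.140 to 4.05 CPM in PF and from 6.30 to 23.5 CPM in EtOH libraries, without overlap (log2 fold change 2.51, SE 0.49, adjusted p = 0.00157), and its log2 fold change was 1.90 without the 5. Cldn2, a claudin that forms cation pores, rose (log2 fold change 1.18, SE 0.30, adjusted p = 0.00696), and Cldn15, a cation-pore claudin of the small intestine, fell without overlap (log2 fold change -1.41, SE 0.21, adjusted p = 0.000426).

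Among genes named for the size of their change alone, Fa2h (chr8:111345135-111393824), which makes 2-hydroxylated sphingolipids, ran from 0.140 to 4.36 CPM in PF libraries (median 1.66) and from 5.13 to 195 CPM in EtOH libraries (median 11.3). The groups did not overlap (log2 fold change 4.80, SE 1.04, adjusted p = 0.00296), and the log2 fold change was 2.52 without the 3 libraries. Hao2, a peroxisomal hydroxyacid oxidase (log2 fold change 4.21, SE 0.96, adjusted p = 0.00400), had a log2 fold change of 1.80 without the 3. Npy4r (chr14:34143992-34152489), the receptor of pancreatic polypeptide, ran from 0.111 to 0.727 CPM in PF and from 1.81 to 10.8 CPM in EtOH libraries (log2 fold change 3.77, SE 0.55, adjusted p = 0.000394), and its log2 fold change was 3.13 without the 3. Genes 2610528A11Rik, Ildr1, Grp, Arhgap20, Mkx and Paqr5 had log2 fold changes of 2.68 to 3.91, none overlapping between diets, and of 1.01 to 1.54 without the 3, where Grp was too low for the fit. The log2 fold changes without the 5 were 2.16 for Fa2h, 1.27 for Hao2, 2.98 for Npy4r, 0.72 for 2610528A11Rik, 1.19 for Ildr1, 1.19 for Arhgap20, 1.03 for Mkx and 1.05 for Paqr5. Among the decreases outside the lists were Dnase1, a secreted nuclease (log2 fold change -6.54, SE 0.70, adjusted p = 7.98e-05, and -5.49 without the 5), and Gpr151, an orphan receptor with 187 counts in PF and 2 in EtOH libraries, a ratio of 123 (95% counting interval 33.5 to 1019.5). Gpr151 stood at 18.2 CPM in fat-1 PF 2 and at most 2.09 CPM in the other PF libraries, and without fat-1 PF 2 the ratio was 41.7. Among abundant genes, Flna, the actin crosslinker filamin A (log2 fold change 1.06, SE 0.13, adjusted p = 0.000158), and Srrm2, a splicing factor (log2 fold change 0.65, SE 0.12, adjusted p = 0.000988), rose. Vil1, villin of the brush border (log2 fold change -0.67, SE 0.25, adjusted p = 0.0427), fell with all libraries, and its call was lost in 13 of the 16 fits that left out 1 library. None of these 3 abundant genes overlapped between diets.

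The effect of diet was also fitted within each genotype. No gene passed edgeR's test of a difference between the genotypes in the effect of diet (0 of 13811, or 0%). The smallest adjusted p was 0.595, 1141 genes had an unadjusted p under 0.05, and DESeq2 also called 0. Of all 13811 genes, 10889 had the same sign in both genotypes (78.8%), and the change was larger in fat-1 mice in 10557 (76.4%). Of the 16 libraries 9 were fat-1 libraries. Of the 5 libraries that stood apart in gut region markers, 4 were fat-1 libraries, and their part in these values was not tested. In 679 genes all EtOH libraries lay above all PF libraries within each genotype (4.92%), and in 946 all lay below (6.85%). Lct had log2 fold changes of -10.70 (SE 1.22) in WT and -10.83 (SE 0.93) in fat-1 mice. Gata4 had log2 fold changes of -7.38 (SE 0.80) and -7.57 (SE 0.61), Fabp1 of -6.11 (SE 1.14) and -8.60 (SE 1.01), and Apoa4 of -4.37 (SE 1.23) and -6.81 (SE 1.10). Myh11 had log2 fold changes of 1.03 (SE 0.23) in WT and 1.53 (SE 0.21) in fat-1 mice, and Hoxb9 of 1.59 (SE 0.65) and 3.85 (SE 0.68).

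**Figure D4:**
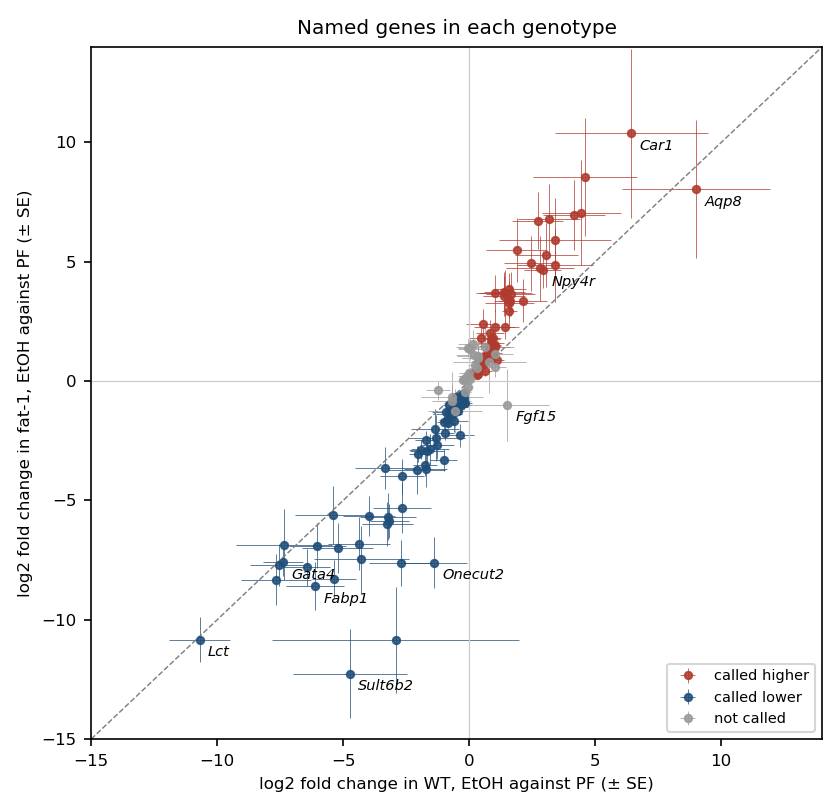
Log2 fold change (EtOH against PF) of 134 named genes in WT mice (horizontal) and fat-1 mice (vertical), with bars of 1 SE and a dashed line of equal change. The plotted genes comprise 52 called higher, 58 called lower and 24 not called over both genotypes. Lct lies close to the line at -10.70 and -10.83.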

How the data were processed

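RNA-seq was performed on poly(A) RNA from the terminal ileum of 16 mice, with 1 library per mouse. The authors aligned reads to mm10 with TopHat2 and deposited htseq raw counts per Ensembl gene, with no normalization. The counting settings, strand included, are not given in the sources used here. The submitters' processing notes also name bcl2fastq, FastQC 0.10.1 and Cufflinks.

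Counts were analysed with edgeR 4.0.16 in R 4.3.3 (filterByExpr over the 4 groups, TMM scaling, robust quasi-likelihood test of diet with genotype as a covariate). Genes at a Benjamini-Hochberg adjusted p of 0.05 or less over all genes tested were called. Standard errors (SE) of log2 fold changes were taken from the test statistic. CPM used the TMM-adjusted library totals. Counting intervals are exact and, like floors of 3 counts, cover counting error only. The fit was tested on simulated data. Alternatives were DESeq2 1.42.0, limma 3.58.1 (voom with quality weights), other scalings, filters and designs, each library left out, and, chosen after seeing the data, 3 or 5 libraries set aside by region markers.

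Named genes were, among called genes without overlap, the 10 largest changes and the 5 most abundant per direction, up to 2 called genes per direction of each of 37 lists (or the member with the smallest p), and members of the ethanol, fatty acid receptor and transcription factor lists. Slc10a2, Fabp6, Fgf15, Sis, Hoxb5, Dclk1 and Lyz1 were chosen after their values were seen. Some genes that the rule names are not reported here. The members and lists were chosen with earlier results of these data known. Replicate numbers did not pair the samples (mean correlation of deviations -0.02 over 21 same-numbered pairs). No 2 libraries of a group agreed within sampling noise.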

Additional observations from a re-analysis of the deposited data

Results flagged for a closer look

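Summed CPM of the 37 lists were examined for a library far from the others of its group or diet, in 185 combinations, of which 10 were flagged. Chance alone sets a library apart in a small share of such groups. In WT PF 4 the sums lay far below the other WT PF libraries for lipid uptake and chylomicron assembly (21135), cytochromes P450 (2871) and epithelial transcription factors (4065). WT PF 3 had 16464 for innate defence, far from the other WT PF libraries, and 39 for pancreas genes, far above the other PF libraries. Fat-1 PF 4 had 4587 for amino acid and peptide transporters, the lowest of its group. Fat-1 PF 2 had 7.86 for B cell genes, far from the other fat-1 PF libraries and from all other PF libraries. Fat-1 PF 3 had 5282 for MHC class II genes, the highest of its group, and fat-1 EtOH 5 had 952 for macrophage and dendritic cell genes, the highest of all EtOH libraries.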

How the results depend on the processing

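The 5318 calls became 5777 with DESeq2, 5695 with limma voom, 5305 with RLE scaling, 5710 with upper-quartile scaling (3875 higher and 1835 lower), 5096 with a looser and 4649 with a stricter filter, 5351 without the genotype term, 4955 with equal weight to each genotype, and 4321 to 5478 with 1 library left out. Replicate numbers did not pair the samples, and the fit with the replicate block called 5051 genes. Genes at least 2-fold higher (645) numbered 339 with 3 and 224 with 5 libraries set aside, 335 with voom and 310 with the stricter filter, and genes at least 2-fold lower (450) numbered 268 with 5 set aside and 297 with the stricter filter. With 3 libraries set aside, 112 of the named genes kept their direction and side of the threshold, and with 5 set aside 100 did. Of the named genes called with all libraries, 12 lost their call with 3 set aside and 21 with 5 set aside. A further 3 were not tested with 3 set aside, and 6 with 5 set aside. In at least 1 fit that left out a single library, 13 lost their call. The log2 fold change turned its sign for Pparg (-0.11), Hnf4a (0.054), Cela1 (-0.59), Adh5 (-0.36) and Aldh2 (-0.063) with 3 set aside, for Cela1 (-0.47), Adh5 (-0.26), Aldh2 (-0.073) and Ffar4 (-0.030) with 5 set aside, for Cela1 (-0.28), Adh5 (-0.24) and Aldh2 (-0.019) with voom, for Hnf4a (0.074) and Cdx2 (0.039) with upper-quartile scaling, and for Hnf4a (0.0011) with the stricter filter. With 1 library left out it ran from -0.086 to 0.020 for Hnf4a, from -0.030 to 0.17 for Adh5 and from -0.21 to 2.45 for Fgf15. None of these genes was called with all libraries. Leaving out 1 library moved the fold of some called genes by over 1.5 times on the linear scale. Their log2 fold changes became -6.34 for Slc2a2 without fat-1 EtOH 2 and -5.57 for Slc28a1 without WT EtOH 1. Without WT PF 1 they were 5.71 for Slc6a14 and 10.25 for Car1. Without WT EtOH 2 they were 6.59 for Aqp8, 3.57 for Cyp2c55 (adjusted p = 0.0646) and 5.46 for Cyp2d34. Plb1 had -6.41 without fat-1 PF 3, and Onecut2 had -4.74 without fat-1 PF 4. Car1 lost its call without WT EtOH 2 (adjusted p = 0.151). The cause of these changes was not tested. Depth limits the genes with few counts, for which ratios with counting intervals were given, and library order and diet cannot be told apart.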

Other observations

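Cholesterol synthesis and uptake, a pathway of the enterocyte that answers to sterol supply, held no called gene of 16 with all libraries (log2 fold changes -0.32 to 0.32) and none without the 3 rich in large intestine markers (medians 0.20 and 0.37). Mvk, mevalonate kinase, had a log2 fold change of -0.32 (SE 0.15, adjusted p = 0.116). Of 12 immediate early and heat shock genes, 1 was called lower and 0 higher, the first being Junb, an AP-1 factor (log2 fold change -0.50, SE 0.13, adjusted p = 0.00702), which was not called when fat-1 PF 2 and 4 were left out as well (-0.44, adjusted p = 0.0518). Of 8 adipocyte genes, Retn, resistin, rose with all libraries (log2 fold change 1.25, SE 0.39, adjusted p = 0.0207) but was not called without these 5 (1.42, adjusted p = 0.0594) or without WT EtOH 1 alone, and Cidec, a lipid droplet protein, fell with all libraries (log2 fold change -0.70, SE 0.26, adjusted p = 0.0478) and was not called without the 3 (log2 fold change -0.66, adjusted p = 0.132). None of 5 red blood cell genes was called, Hbb-bs, a beta globin, having a log2 fold change of -0.76 (SE 0.32, adjusted p = 0.0713), with 51.5% of its 75-base windows shared with another globin gene. Of 10 pancreas genes only Cela1, an elastase, was tested, with a log2 fold change of 0.71 (SE 0.48, adjusted p = 0.253) and 15.6 to 47.1 CPM in the 3 libraries against 5.04 to 6.80 CPM in the other EtOH libraries. It was called lower without the 3 (log2 fold change -0.59, adjusted p = 0.0163) and was not called without the 5 (-0.47, adjusted p = 0.0674).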
